A study of Homo sapiens with 48 samples.

Results

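The genes described here are 10 regulators of the passage from G1 into S phase. The cyclins are the D-type CCND1, CCND2 and CCND3 and the E-type CCNE1 and CCNE2. The inhibitors are the CIP/KIP genes CDKN1A, CDKN1B and CDKN1C and the INK4 genes CDKN2B and CDKN2C. All 10 were chosen by symbol from the 58721 genes of the deposited tables, with earlier results of these data known. They were measured by total RNA sequencing in DLD-1, a human colorectal cancer cell line, after loss of a subunit of CCR4-NOT. In the CNOT1-AID line an auxin-inducible degron, a tag that marks its carrier for destruction when auxin is added, had been placed on CNOT1, the scaffold of the complex. In the CNOT4-AID line the degron sat on CNOT4, a ubiquitin ligase that associates with the complex, and the Parental line carried no degron. All 3 lines expressed TIR1, the plant F-box protein that auxin needs to act. In the first set each line was kept with 1 mM auxin or left untreated for 8 or 24 h. In the second set all 3 lines received 1 mM auxin for 2 h and then 1 µM triptolide, a drug that stops transcription by RNA polymerase II, and were collected at 0, 3, 6 and 12 h of triptolide. Every group held 2 libraries. Each degron was studied in 1 line, the amount of the tagged protein was not measured in the data used here, and the second set had no cells without auxin.

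D-type cyclins bind CDK4 and CDK6 and begin the phosphorylation of the retinoblastoma protein, and E-type cyclins bind CDK2 and drive entry into S phase. The CIP/KIP proteins p21 (CDKN1A), p27 (CDKN1B) and p57 (CDKN1C) bind cyclin-CDK complexes and hold CDK2 back, while the INK4 proteins p15 (CDKN2B) and p18 (CDKN2C) bind CDK4 and CDK6 alone and keep D-type cyclins off them. CCR4-NOT shortens the poly(A) tail of mRNAs, the step that usually begins their decay, and it is brought to particular mRNAs by AU-rich element binding proteins, by Pumilio proteins and by the microRNA machinery.

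Short 3′ UTR sites of CDKN1B are shown first, because CDKN1B had the largest rise in steady-state RNA and the steepest decline under triptolide among these genes. Each line below is a stretch of a GRCh38 3′ UTR read 5′ to 3′ on the sense strand, all on plus-strand genes, and the capitals mark the letters of the motif. The motifs searched, on the sense strand only, were TGTANATA (the letters bound by Pumilio proteins), ATGTAGC (the match to bases 2 to 8 of miR-221-3p and miR-222-3p, microRNAs known to target CDKN1B) and ATTTA (the core of AU-rich elements).
CDKN1B, TGTANATA, chr12:12721269-12721298: tgtactacctgTGTATATAgtttttacctt
CDKN1B, TGTANATA, chr12:12722085-12722114: aagtgtacctgTGTACATAactctgtaaaa
CDKN1B, ATGTAGC, chr12:12721217-12721246: aaaagcgttggATGTAGCattatgcaatta
CDKN1B, ATGTAGC, chr12:12721290-12721319: ttttaccttttATGTAGCacataaactttg
CDKN1B, ATTTA, chr12:12721533-12721562: aagataattgctATTTAtttttacaagaag
CDKN1A, TGTANATA, chr6:36685916-36685945: acacctcctcaTGTACATAccctggccgcc
CCND1, ATTTA, chr11:69652694-69652723: gctaaaaagtatATTTAttgcagaggatgt
The mature microRNAs, from RefSeq on GRCh38.p14, are shown with the seed, bases 2 to 8, in capitals. They share 1 seed.
miR-221-3p: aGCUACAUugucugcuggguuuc
miR-222-3p: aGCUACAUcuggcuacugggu

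The CDKN1B 3′ UTR of 1344 bases held 7 ATTTA, 2 TGTANATA and 2 ATGTAGC. Among 2290 genes with a 3′ UTR within 20% of that length, 9.43% held at least as many ATTTA, 6.55% at least as many TGTANATA and 0.262% at least as many ATGTAGC. The CDKN1A 3′ UTR held 3 ATTTA and 1 TGTANATA, which 52.3% and 28.7% of genes of like length matched or passed. CCND1, in 3192 bases, also held 7 ATTTA, a number that 50.8% of genes of like length matched or passed, and it held neither of the other motifs. CCNE1, in 531 bases, held none of the 3. CCNE2, in 1862 bases, held 11 ATTTA and 2 TGTANATA, which 3.83% and 8.57% of genes of like length matched or passed. CDKN1C, CDKN2B and CCND2 each held 1 ATGTAGC, which 3.45%, 14.9% and 23.1% of genes of like length matched or passed. The motifs were chosen after values of these genes had been seen. ATGTAGC belongs to microRNAs already known to target CDKN1B, so its share there cannot show that CDKN1B is unusual. A match describes letters only, and gene-level tables do not show which 3′ end was used.

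The steady-state table holds TPM, a length-normalised transcript share of each library with the same sum in all of them, so the read depth behind each value is unknown. The triptolide table holds raw read counts, 18216427 to 26723618 per library. ERCC spike-in RNAs, added to each sample, made up 0.847% to 1.67% of the first table and 0.941% to 3.92% of the second. Markers of colon epithelium were present, with 11 of 15 at a mean of at least 1 TPM, and the markers of fibroblasts and endothelium were all below it (0 of 8 and 0 of 4), as were those of blood cells except CD14 (1 of 7, at a mean of 1 TPM). The degron acts on protein, so its mRNA does not check the labels: CNOT1 mRNA stood at 39.89 to 48.26 TPM in CNOT1-AID cells with auxin, at 48.97 to 68.37 TPM in the same cells untreated and at 83.82 to 105.14 TPM in Parental cells, and CNOT4 mRNA at 8.66 to 12.55 TPM in CNOT4-AID cells with auxin, 9.02 to 10.22 TPM in the same cells untreated and 8.08 to 10.34 TPM in Parental cells. In 1 library (CNOT4-AID, auxin, 8 h, replicate 1) protein-coding genes held 30.6% of TPM and snRNAs 34.1%, against medians over 24 libraries of 46.33% and 17.845%. The Parental libraries at 0 h of triptolide differed most from each other, with r = 0.9594 between log2 values, against 0.9813 to 0.9904 in the other groups. No label says that replicates came from separate cultures, so the spread between libraries of a group may be technical. A p-value here rests on that spread, pooled over all groups of a set and steadied with values of other genes. For a slope under triptolide, fitted as a straight line in time, the error also holds departures from a constant decline. In bulk samples fewer cells of a type and less RNA per cell cannot be told apart.

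Steady-state differences were fitted with limma on log2(TPM + 0.5) after TMM scaling, which sets the trimmed mean log ratio between libraries to 0, and a gene passed the test at a Benjamini-Hochberg adjusted p under 0.05 over 14921 genes that reached 1 TPM in at least 2 libraries. Of the 10 genes, 8 reached that level. CCND2 (0.02 to 0.25 TPM) and CDKN2B (0.17 to 0.47 TPM) did not and were not tested there. Fold changes are on this log2 scale, which understates changes of low genes such as CDKN1A, CDKN1C and CDKN2C. The choice of scaling matters for small changes: the TMM factors were 1.21 and 1.21 in CNOT1-AID cells with auxin for 8 h, against 0.922 and 1.05 in the untreated cells. Relative to TMM, the median log2 change of all genes lay higher by 0.41 at 8 h and 0.32 at 24 h when the ERCC RNAs set the scale, and by 0.26 and 0.22 with no scaling.

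In CNOT1-AID cells auxin raised both E-type cyclins and the CIP/KIP inhibitors CDKN1B and CDKN1C at both times, raised CDKN1A at 8 h, and lowered the D-type cyclins CCND1 and CCND3 and the INK4 inhibitor CDKN2C. At 8 h all 8 tested genes passed the test, 5 higher and 3 lower, where 62.8% of all genes passed, 33.1% higher and 29.8% lower. With ERCC scaling the split at 8 h was 6 higher and 2 lower. At 24 h 7 of 8 passed, 4 higher and 3 lower, where 71.5% of all genes passed, 36.7% higher and 34.8% lower. The median log2 change of the 8 genes was 0.44 at 8 h and 0.17 at 24 h, against 0.00 and -0.01 over all genes.

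**Figure D1:**
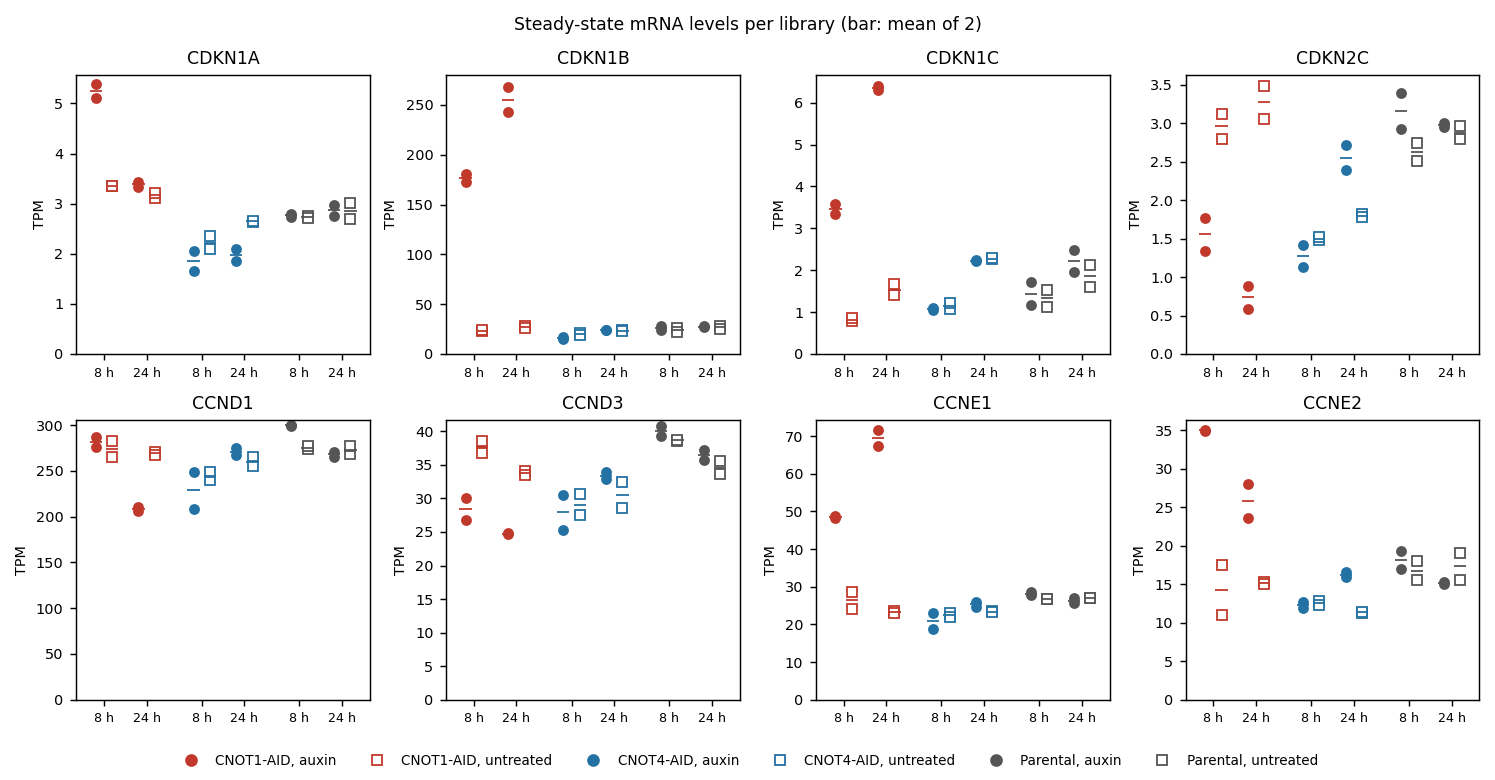
Deposited TPM of the 8 tested genes in each steady-state library of CNOT1-AID, CNOT4-AID and Parental cells, filled circles for auxin, open squares for untreated cells and bars for the mean of 2 libraries. CDKN1B stands at 172.99 to 267.93 TPM in CNOT1-AID cells with auxin and between 14.95 and 28.35 TPM in every other library.

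Among the D-type cyclins, CCND1 had the highest mean TPM of the 10 genes, at 205.99 to 300.39 TPM over the 24 libraries. It had 276.15 and 287.44 TPM in CNOT1-AID cells with auxin for 8 h, against 265.18 and 282.24 TPM in untreated cells, so the deposited values of the 2 groups overlapped. After TMM scaling the same libraries stood at 228 and 238 with auxin, against 288 and 269 untreated, a log2 change of -0.25 ± 0.051 (SE) with an adjusted p of 0.000385. The direction at 8 h therefore depended on the scaling: it was 0.21 with ERCC scaling (adjusted p = 0.0476) and 0.04 with no scaling (adjusted p = 0.625). At 24 h CCND1 had 205.99 and 210.40 TPM with auxin, against 270.24 and 267.71 TPM untreated, and both auxin libraries lay below both untreated ones. The log2 change was -0.63 ± 0.051, or 1.55-fold lower, with an adjusted p of 8.55e-09, and it was lower under every alternative run at 24 h (-0.68 to -0.25).

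CCND3, the other D-type cyclin with an appreciable level, had 26.84 and 30.01 TPM in CNOT1-AID cells with auxin for 8 h, against 38.52 and 36.83 TPM untreated. At 24 h it had 24.78 and 24.71 TPM with auxin, against 34.14 and 33.47 TPM untreated. The groups did not overlap at either time. CCND3 was 1.62-fold lower at both times, with log2 changes of -0.69 ± 0.085 at 8 h (adjusted p = 2.03e-06) and -0.70 ± 0.085 at 24 h (adjusted p = 1.24e-06). It passed the test in the same direction under each alternative run, at -0.82 to -0.23 at 8 h. CCND2, an alternative D-type cyclin, was close to absent: it had 0.05 and 0.04 TPM in CNOT1-AID cells with auxin for 8 h, against 0.11 and 0.12 TPM untreated, and no test was made.

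Of the E-type cyclins, CCNE1 climbed with time. It had 48.71 and 48.13 TPM in CNOT1-AID cells with auxin for 8 h, against 24.15 and 28.72 TPM untreated, and 71.54 and 67.31 TPM with auxin for 24 h, against 23.45 and 23.05 TPM untreated. Every auxin library was above every untreated one. The rise was 1.49-fold at 8 h (log2 0.57 ± 0.044, adjusted p = 7.34e-09) and 2.46-fold at 24 h (log2 1.30 ± 0.044, adjusted p = 1.6e-13). CCNE2 ran the other way in time: it had 35.11 and 34.90 TPM with auxin for 8 h, against 11.05 and 17.50 TPM untreated, and 27.98 and 23.59 TPM with auxin for 24 h, against 15.28 and 15.00 TPM untreated. The groups did not overlap at either time, and the untreated libraries at 8 h were the farthest apart. The 24 h rise of CCNE2 was 1.40-fold (log2 0.49 ± 0.117, adjusted p = 0.00135), against a log2 rise of 1.01 ± 0.117 at 8 h (adjusted p = 1.11e-06). The change between the times, the 24 h response minus the 8 h response, was 0.72 for CCNE1 and -0.52 for CCNE2, and both passed the test. The CCNE2 change did not pass without replicate 1 of the untreated 8 h libraries (-0.29, adjusted p = 0.112), without replicate 2 of the untreated 24 h (-0.50, adjusted p = 0.0586) or auxin 24 h libraries (-0.44, adjusted p = 0.0923), with ERCC scaling or no scaling, or when only this line's libraries were fitted. CCNE2 overlaps INTS8 (up to 38.5 TPM) on the other strand, and the strand setting of the authors' counting is not given in the sources used here.

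CDKN1B, which encodes p27, changed most. It had 172.99 and 180.40 TPM in CNOT1-AID cells with auxin for 8 h, against 22.70 and 24.35 TPM untreated. At 24 h it had 267.93 and 242.79 TPM with auxin, against 28.35 and 26.55 TPM untreated. All 4 auxin libraries lay far above the other 20 steady-state libraries, as the plot of deposited TPM shows. CDKN1B was 6.01-fold higher at 8 h (log2 2.59 ± 0.066, adjusted p = 2.76e-14) and 7.63-fold higher at 24 h (log2 2.93 ± 0.066, adjusted p = 1.92e-15), which placed it 32nd and 62nd from the top of 14921 genes. With auxin for 24 h CDKN1B (242.79 to 267.93 TPM) lay above CCND1 (205.99 and 210.40 TPM), whereas in the untreated cells it lay far below CCND1 (26.55 and 28.35 TPM, against 267.71 and 270.24 TPM), on a scale that corrects for length. An intronic transcript on the same strand, AC008115.3, lies inside the CDKN1B gene (chr12:12715058-12722371) and reached at most 6.77 TPM.

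CDKN1C, which encodes p57, was low throughout. It had 3.33 and 3.59 TPM in CNOT1-AID cells with auxin for 8 h, against 0.78 and 0.85 TPM untreated, and 6.29 and 6.39 TPM with auxin for 24 h, against 1.66 and 1.41 TPM untreated. No auxin library overlapped an untreated one. It was 2.53-fold higher at 8 h (log2 1.34 ± 0.153, adjusted p = 9.23e-07) and 2.83-fold higher at 24 h (log2 1.50 ± 0.153, adjusted p = 1.45e-07). CDKN1A, which encodes p21, had 5.10 and 5.39 TPM with auxin for 8 h, against 3.36 and 3.36 TPM untreated, and was 1.24-fold higher (log2 0.31 ± 0.090, adjusted p = 0.00725). That call was lost without replicate 2 of the untreated 8 h libraries (0.22, adjusted p = 0.082) and without replicate 2 of the auxin 8 h libraries (0.26, adjusted p = 0.0566). At 24 h CDKN1A had 3.44 and 3.34 TPM with auxin, against 3.12 and 3.22 TPM untreated, and the scaled log2 change of -0.14 ± 0.090 did not pass (adjusted p = 0.172). Its sign followed the scaling, at -0.19 to 0.18 over the alternatives, none of which passed. The 24 h response of CDKN1A minus its 8 h response was -0.45 and passed the test.

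Of the INK4 inhibitors, CDKN2C, which encodes p18, went down. It had 1.77 and 1.34 TPM in CNOT1-AID cells with auxin for 8 h, against 3.12 and 2.80 TPM untreated, and 0.58 and 0.89 TPM with auxin for 24 h, against 3.06 and 3.49 TPM untreated. The groups did not overlap at either time. The gene was 1.97-fold lower at 8 h (log2 -0.98 ± 0.138, adjusted p = 9.85e-06) and 3.36-fold lower at 24 h (log2 -1.75 ± 0.138, adjusted p = 5.57e-09). CDKN2B, which encodes p15, had 0.24 and 0.36 TPM with auxin for 8 h, against 0.17 and 0.29 TPM untreated, and these groups overlapped. Between the 2 times 6 of the 8 tested genes differed in their response to auxin, where 36.3% of all genes did. CCND1 (-0.38), CCNE2, CDKN1A and CDKN2C (-0.77) were lower at 24 h than at 8 h relative to their untreated cells, and CCNE1 and CDKN1B (0.34) were higher. Only 3 of the 6 passed when the fit held the CNOT1-AID libraries alone, and CDKN1B did not pass with ERCC scaling (0.25, adjusted p = 0.23).

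**Figure D2:**
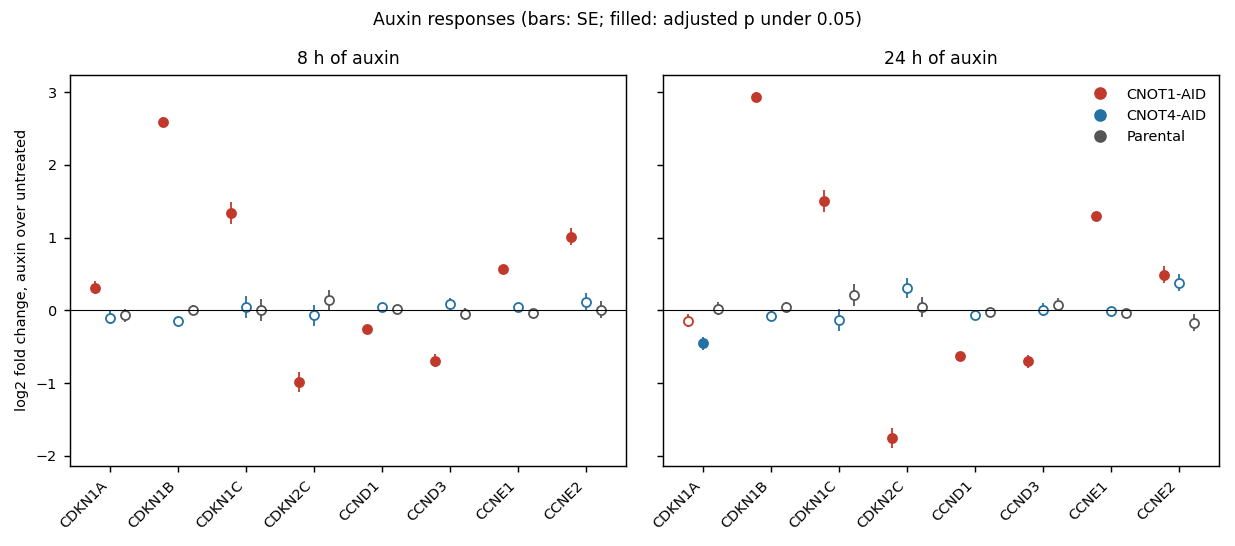
Log2 change with auxin against untreated cells for the 8 tested genes at 8 and 24 h in CNOT1-AID, CNOT4-AID and Parental cells, with bars of 1 SE and filled points where the adjusted p is under 0.05. CNOT1-AID values run from -1.75 (CDKN2C, 24 h) to 2.93 (CDKN1B, 24 h), CNOT4-AID values from -0.45 to 0.38 and Parental values from -0.17 to 0.21.

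In CNOT4-AID cells the same genes moved little. At 8 h 0 of 8 passed the limma test and 0 had an unadjusted p under 0.05, with log2 changes from -0.14 to 0.12, and 0.288% of all genes passed. At 24 h 1 of 8 passed, where 4.51% of all genes passed. That gene was CDKN1A, with 2.10 and 1.86 TPM with auxin, against 2.63 and 2.66 TPM untreated, 1.37-fold lower (log2 -0.45 ± 0.090, adjusted p = 0.0144). The call was lost with ERCC scaling (-0.27, adjusted p = 0.165), with no scaling (-0.34, adjusted p = 0.124), when this line was fitted alone (-0.44, adjusted p = 0.0729) and, among its 4 libraries, without untreated replicate 1 (-0.46, adjusted p = 0.117), auxin replicate 1 (-0.52, adjusted p = 0.0679) or auxin replicate 2 (-0.39, adjusted p = 0.121). CCNE2 had 16.58 and 15.97 TPM with auxin, against 11.32 and 11.42 TPM untreated, and although the libraries did not overlap, the log2 change of 0.38 did not pass (adjusted p = 0.0724), though it did when this line was fitted alone (0.38, adjusted p = 0.0492). CDKN2C had 2.72 and 2.39 TPM with auxin, against 1.82 and 1.78 TPM untreated, a log2 change of 0.31 that did not pass (adjusted p = 0.199). CDKN1B, at 24.09 and 24.03 TPM with auxin for 24 h, against 23.63 and 22.99 TPM untreated, did not pass.

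Auxin without the degron left these genes within narrow bounds. In Parental cells no gene of the 8 passed the limma test at either time, none had an unadjusted p under 0.05, and log2 changes lay between -0.07 and 0.14 at 8 h and between -0.17 and 0.21 at 24 h. Over all genes 0.0201% passed at 8 h and 0% at 24 h. The auxin response of CNOT1-AID minus that of Parental cells passed for 8 of 8 genes at 8 h, where 50.3% of all genes passed, and for 7 of 8 at 24 h, where 61.9% passed. It was 2.58 at 8 h and 2.88 at 24 h for CDKN1B, 0.60 and 1.33 for CCNE1, 0.99 and 0.66 for CCNE2, 1.33 and 1.29 for CDKN1C, and -1.12 and -1.80 for CDKN2C on the log2 scale. For CCND3 it was -0.64 and -0.78, and with ERCC scaling the 8 h value was -0.13 (adjusted p = 0.453). For CCND1 it was -0.27 and -0.61, and with ERCC scaling the 8 h value turned to 0.25 (adjusted p = 0.116) and the 24 h value no longer passed (-0.21, adjusted p = 0.179). For CDKN1A the 8 h value was 0.38 and passed narrowly: it did not pass without replicate 2 of the CNOT1-AID auxin (0.33, adjusted p = 0.0706), CNOT1-AID untreated (0.29, adjusted p = 0.0871), Parental auxin (0.37, adjusted p = 0.0524) or Parental untreated 8 h libraries (0.36, adjusted p = 0.0591).

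The response of CNOT4-AID minus that of Parental cells passed for 0 of 8 genes at 8 h, where 0.0134% of all genes passed, and for 0 of 8 at 24 h, where 0.0670% passed. No gene had an unadjusted p under 0.05 at 8 h, and CCNE2 and CDKN1A did at 24 h. The response of CNOT1-AID minus that of CNOT4-AID cells passed for 8 of 8 genes at 8 h (51.6% of all genes) and 7 of 8 at 24 h (62.2%). At 8 h with ERCC scaling it passed for 5 of 8, all of them higher. For CDKN1A it was 0.40 at 8 h, which did not pass without replicate 2 of the CNOT1-AID auxin (0.36, adjusted p = 0.052), CNOT1-AID untreated (0.32, adjusted p = 0.0637) or CNOT4-AID untreated libraries (0.32, adjusted p = 0.0698), and 0.31 at 24 h, which did not pass without any 1 of 6 libraries (adjusted p of 0.0646 to 0.152). At 24 h it was 3.01 for CDKN1B and -2.06 for CDKN2C, and for CCNE2 it was 0.11 and did not pass (adjusted p = 0.591), so the 24 h responses of CCNE2 in the 2 degron lines were not shown to differ. The 24 h response minus the 8 h response passed for 0 of 8 genes in CNOT4-AID cells, where 0.0201% of all genes passed and CDKN1A had an unadjusted p under 0.05, and for 0 of 8 in Parental cells, where 0.00670% passed and none did.

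Untreated CNOT1-AID cells differed from untreated Parental cells in 2 of 8 genes, CDKN1A (log2 0.22, adjusted p = 0.0206) and CDKN1C (-0.31, adjusted p = 0.0498), where 20.7% of all genes passed. Untreated CNOT4-AID cells differed in CCND1 (0.15, adjusted p = 0.00877) and CDKN2C (-0.39, adjusted p = 0.0105), where 20.2% passed. Neither count was stable: it was 0 to 3 for CNOT1-AID and 1 to 4 for CNOT4-AID when single libraries were left out, and with no scaling CCND1 turned to -0.12 in CNOT4-AID cells.

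The second set asked how fast these mRNAs decayed once transcription had been stopped. Counts were fitted with edgeR's quasi-likelihood test with library sizes set by 56 ERCC RNAs, the slope being the log2 change per hour of triptolide. A half-life is given, with a 95% interval, only where the slope passed the test over 16806 genes. All 10 genes were tested. In CNOT1-AID cells with auxin no decline passed the test for any of these genes. There 0 of 10 slopes passed edgeR's test, 0 had an unadjusted p under 0.05 and DESeq2 called 0, where 11.0% of all genes passed. The slopes ran from -0.059 (CDKN1C) to 0.012 (CDKN2B), and the median of all genes was -0.026. With TMM scaling 1 passed, CCND1, in the rising direction (0.017). In Parental cells 7 of 10 declined, where 49.0% of all genes passed and 48.3% declined, and the median slope of all genes was -0.073. All 5 CDK inhibitors and both E-type cyclins declined, and the slopes of the D-type cyclins did not pass. The split depended on scaling: with TMM, which removes the decline shared by most genes, 5 declined and 3 passed in the opposite direction, CCND1 and CCND3 among them (0.046 and 0.050).

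CDKN1B had the steepest fitted slope, with a Parental half-life of 2.00 h (1.51 to 2.98). Its decline was not constant in time: the slope of -0.500 log2 per hour over all times became -1.139 from 0 and 3 h alone and -0.280 without the Parental 0 h libraries, so the half-life is an average over the 12 h and its interval does not cover that choice of times. In CNOT1-AID cells it had 4027 and 3744 reads at 0 h, 4269 and 3562 at 3 h, 4745 and 4231 at 6 h and 5165 and 4602 at 12 h of triptolide. In Parental cells it had 2000 and 2443 reads at 0 h, 244 and 240 at 3 h, 91 and 68 at 6 h and 46 and 53 at 12 h. After ERCC scaling, 86.8% of the 0 h level was left at 12 h in CNOT1-AID cells, 0.823% in CNOT4-AID cells and 1.57% in Parental cells. No CNOT1-AID library overlapped a Parental library of the same time, and by 3 h the Parental level was at 9.35% of its start.

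CDKN1A had a Parental half-life of 4.29 h (3.09 to 7.01), which also depended on the times used: its slope of -0.233 became -0.650 from 0 and 3 h alone, and -0.104 without the Parental 0 h libraries, where it no longer passed (adjusted p = 0.0855). In CNOT1-AID cells it had 351 and 336 reads at 0 h, 378 and 312 at 3 h, 467 and 382 at 6 h and 474 and 426 at 12 h. In Parental cells CDKN1A had 146 and 161 reads at 0 h, 44 and 49 at 3 h, 43 and 24 at 6 h and 32 and 26 at 12 h. At 12 h CNOT1-AID cells kept 90.4% of the CDKN1A they had at 0 h, against 13.4% in Parental cells, where most of the loss fell in the first 3 h (25.7% left). CDKN1C had few reads, 26 to 65 in any library, and a long and uncertain Parental half-life of 11.3 h (6.40 to 48.4), whose slope did not pass without 0 h replicate 1 (adjusted p = 0.0529) or either 12 h library (adjusted p = 0.0838 and 0.0775).

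Of the E-type cyclins, CCNE1 had a Parental half-life of 4.31 h (3.51 to 5.57) and CCNE2 one of 6.14 h (4.62 to 9.15), intervals that overlap. CCNE1 had 915 and 795 reads at 0 h and 1301 and 1123 at 12 h in CNOT1-AID cells, against 707 and 816 reads at 0 h and 163 and 149 at 12 h in Parental cells. At 12 h CCNE1 was at 98.2% of its start in CNOT1-AID cells and 14.5% in Parental cells, and CCNE2 at 102% in CNOT1-AID and 26.0% in Parental cells. The Parental 0 h libraries disagreed on CCNE2, with 463 and 1030 reads.

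CDKN2C, an INK4 inhibitor, had a Parental half-life of 4.36 h (3.38 to 6.15). It had 121 and 95 reads at 0 h and 160 and 128 at 12 h in CNOT1-AID cells, against 103 and 83 reads at 0 h and 14 and 24 at 12 h in Parental cells. CDKN2C was thus kept after transcription stopped in the same line in which its steady-state level fell. CDKN2B had only 5 to 40 reads in any library and a Parental half-life of 6.46 h (3.76 to 23.0), whose slope did not pass without replicate 1 of the 0 h (adjusted p = 0.147) or 12 h libraries (adjusted p = 0.0694). The D-type cyclins CCND1 (slope -0.025), CCND3 (-0.021) and CCND2 (0.013) did not pass in Parental cells, and CCND1 was at 79.2% and CCND3 at 81.2% of the start at 12 h.

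**Figure D3:**
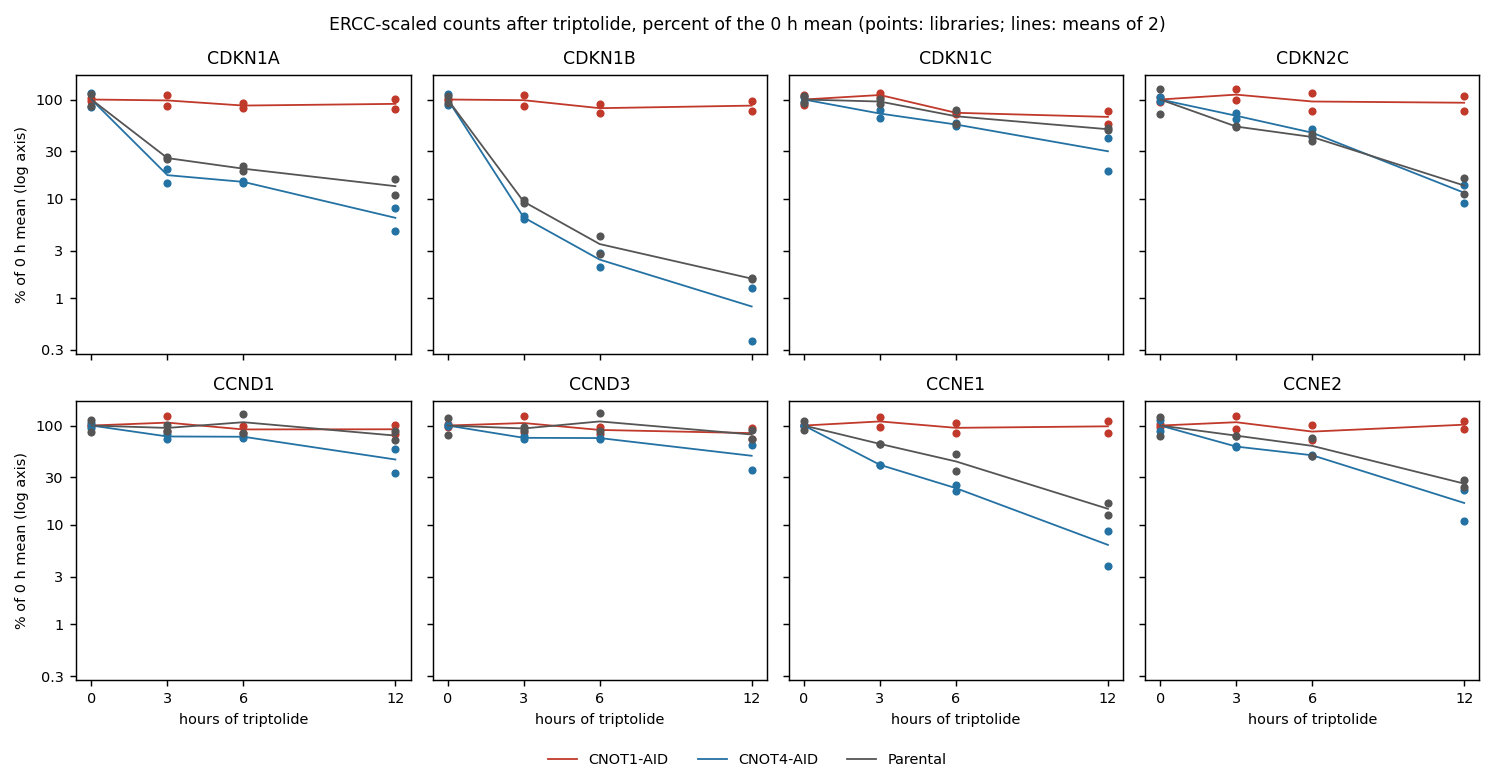
ERCC-scaled counts of 8 of the genes as a percent of their 0 h mean (log axis) against hours of triptolide in CNOT1-AID, CNOT4-AID and Parental cells, points for libraries and lines for the mean of 2. At 12 h CDKN1B is at 86.8% in CNOT1-AID, 0.823% in CNOT4-AID and 1.57% in Parental cells, while CCND1 is at 91.7%, 45.5% and 79.2%.

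The slope of CNOT1-AID minus that of Parental cells passed for 5 of 10 genes, all higher, where 19.8% of all genes passed and 18.8% were higher. These were CDKN1B (0.480 ± 0.099 log2 per hour, adjusted p = 0.00129), CCNE1 (0.225 ± 0.033, adjusted p = 6.18e-07), CDKN1A (0.220 ± 0.057, adjusted p = 0.00644), CDKN2C (0.214 ± 0.042, adjusted p = 8.32e-05) and CCNE2 (0.160 ± 0.034, adjusted p = 0.00027). The median slope difference of the 10 genes was 0.163, against 0.028 over all genes. CDKN2B (0.166, adjusted p = 0.0926), CDKN1C (0.030, adjusted p = 0.841) and the 3 D-type cyclins (-0.031 to 0.010) did not pass. With TMM scaling the split was 5 higher and 2 lower, since CCND1 (-0.029) and CCND3 then passed on the lower side.

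The calls depended on the times used. Without the 12 h libraries 3 of 10 differences passed, and CCNE2 (0.081, adjusted p = 0.683) and CDKN2C (0.195, adjusted p = 0.199) were lost. Without the Parental 0 h libraries, which differed most from each other, CDKN1B (0.260, adjusted p = 0.118) and CDKN1A (0.091, adjusted p = 0.33) were lost. In a comparison of 3 h with 0 h, added after the values had been seen, the change in CNOT1-AID minus that in Parental cells was 3.39 ± 0.437 for CDKN1B (adjusted p = 3.53e-12) and 1.92 ± 0.473 for CDKN1A (adjusted p = 0.00282) on the log2 scale, where 3.37% of all genes passed. Both of these differences rest on the Parental 0 h libraries. Within lines, 0 of 10 passed and 0 had an unadjusted p under 0.05 in edgeR's test at 3 h in CNOT1-AID cells, where 5.37% of all genes passed. In CNOT4-AID cells CDKN1B (-3.95), CDKN1A (-2.52), CDKN2B (-1.46) and CCNE1 (-1.31) had fallen, where 31.6% passed. The call of CDKN2B did not hold in edgeR's test with TMM (-0.93, adjusted p = 0.181) or median-of-ratios scaling (-0.91, adjusted p = 0.186). It was also lost in DESeq2 with ERCC factors (-1.47, adjusted p = 0.0954) and without any 1 of 3 libraries (-1.50 to -1.27). In Parental cells CDKN1B (-3.42) and CDKN1A (-1.95) had fallen, where 14.8% passed. With TMM scaling CCNE1 (-0.47, adjusted p = 0.00161) and CDKN2C (-0.73, adjusted p = 0.0364) passed there too, and CDKN2C also passed without Parental 0 h replicate 2 (-1.26, adjusted p = 0.0205). The 3 h change in CNOT1-AID minus that in CNOT4-AID cells, which does not use the Parental libraries, passed for CDKN1B (3.92), CDKN1A (2.49) and CCNE1 (1.45), where 9.70% of all genes passed, and that in CNOT4-AID minus Parental cells for 0 of 10, where 0.0417% passed and no gene had an unadjusted p under 0.05.

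In CNOT4-AID cells 9 of 10 declined, where 85.8% of all genes passed and 85.6% declined, and with TMM scaling 6 declined and 3 D-type cyclins passed in the opposite direction. Half-lives were 1.73 h (1.34 to 2.43) for CDKN1B, 3.05 h (2.63 to 3.64) for CCNE1, 3.15 h (2.46 to 4.38) for CDKN1A, 3.85 h (3.05 to 5.24) for CDKN2C and 4.73 h (3.77 to 6.35) for CCNE2. They were longer for CDKN1C, at 6.92 h (4.71 to 13.0), CCND1, at 11.0 h (7.24 to 23.3), and CCND3, at 12.6 h (7.87 to 32.0). The slopes of the D-type cyclins (-0.091 to -0.074) were shallower than the median of all genes (-0.148). Without the 12 h libraries the slopes of CDKN1C (-0.139, adjusted p = 0.0609), CCND1 (-0.063, adjusted p = 0.174) and CCND3 (-0.070, adjusted p = 0.149) did not pass edgeR's test. CDKN1B had 3027 and 2398 reads at 0 h and 77 and 36 at 12 h. At 3 h CDKN1B was at 6.49% and CDKN1A at 17.3% of the start, so their decline was not constant in time. The half-lives of these 2 genes are averages over the 12 h, and their intervals do not cover the choice of times. All 10 slopes were below the Parental ones, by a median of 0.07 where the median of all genes was lower by 0.08, and with edgeR 0 of 10 differences passed, where 0.845% of all genes passed. Unadjusted, CCND1 and CCNE1 had a p under 0.05, and DESeq2 called 1, CCNE1 (-0.097, adjusted p = 0.0292). Without replicate 1 of the CNOT4-AID 12 h libraries 3 differences passed, CCND1 (-0.093), CCND3 (-0.090) and CCNE1 (-0.145). The ERCC share in the CNOT4-AID 12 h libraries was 2.25% and 3.92%, and its part in these slopes was not tested. The slope of CNOT1-AID minus that of CNOT4-AID cells passed for 7 of 10 genes, where 51.7% of all genes passed, with CDKN1B at 0.559, CCNE1 at 0.321, CDKN1A at 0.304, CDKN2B at 0.286, CDKN2C at 0.244, CCNE2 at 0.209 and CCND1 at 0.076. With TMM scaling the split was 6 higher and 2 lower, and CCND1 turned to -0.035. The CCND1 difference also did not pass without any 1 of several libraries, at 0.046 (adjusted p = 0.237) the lowest, without replicate 2 of the CNOT4-AID 12 h libraries, and at 0.062 (adjusted p = 0.169) without replicate 1 of the CNOT1-AID 12 h libraries.

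After 2 h of auxin, before triptolide, CDKN1A and CDKN1B were already higher in CNOT1-AID than in Parental cells. With TMM scaling 5 of 10 genes passed, where 14.5% of all genes passed. CDKN1A was 2.33-fold higher (log2 1.22, adjusted p = 8.38e-05) and CDKN1B 1.83-fold higher (log2 0.87, adjusted p = 0.000205), on the reads given above. CCND1 (-0.27, adjusted p = 0.015), CCND2 (-0.96, adjusted p = 0.028) and CCND3 (-0.39, adjusted p = 0.00661) were lower. With ERCC scaling CDKN1A and CDKN1B alone passed, and CCND1 was at 0.04. Without either CNOT1-AID 0 h library none of the D-type cyclins passed (adjusted p of 0.0511 to 0.192), and without Parental 0 h replicate 2 CCND2 did not pass (-0.74, adjusted p = 0.111) and CCNE2 did (0.91, adjusted p = 1.66e-06), against 0.42 with it (adjusted p = 0.121). In CNOT4-AID against Parental cells 3 of 10 passed, where 12.0% of all genes passed: CDKN1A (0.55, adjusted p = 0.048) was higher, and CCND2 (-1.52, adjusted p = 0.00192) and CCND3 (-0.40, adjusted p = 0.00633) were lower, and with ERCC scaling 0 passed. CDKN1A was at 0.25 (adjusted p = 0.485) without CNOT4-AID 0 h replicate 2 and 0.47 (adjusted p = 0.0672) without Parental replicate 2, CCND3 at -0.34 (adjusted p = 0.0649) without CNOT4-AID replicate 1, and CCNE2 passed at -0.64 (adjusted p = 8.06e-05) without Parental replicate 1 and CCNE1 at -0.30 (adjusted p = 0.032) without Parental replicate 2. These cells all had auxin, so an effect of 2 h of auxin and a difference between the lines cannot be told apart here.

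**Figure D4:**
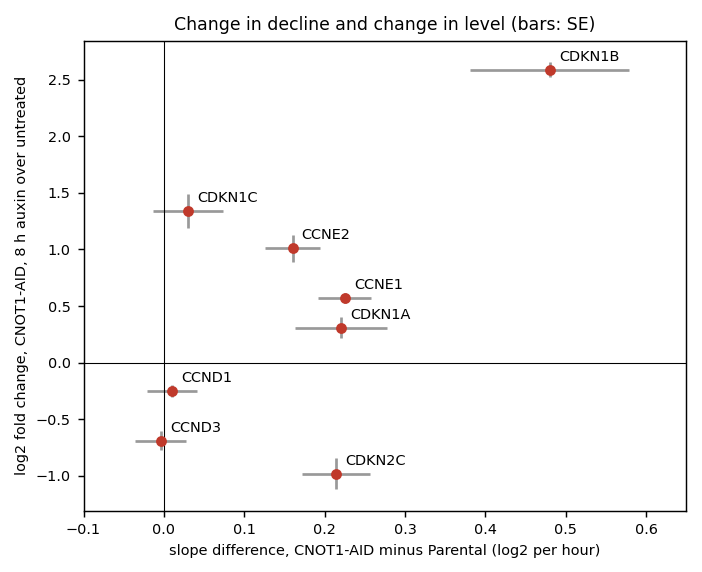
Slope difference under triptolide, CNOT1-AID minus Parental (log2 per hour, x axis), against the log2 change with auxin for 8 h in CNOT1-AID cells (y axis), for the 8 genes tested in both. Slopes are ERCC-scaled and steady-state changes TMM-scaled. CDKN1B is at the upper right (0.480 and 2.59), while CDKN2C has a positive slope difference (0.214) and a lower steady-state level (-0.98), and CDKN1C a slope difference near 0 (0.030) and a higher level (1.34).

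Set side by side, the decay and steady-state results of these genes did not always match, as the plot of slope difference against response shows. CDKN1B, CCNE1, CCNE2 and CDKN1A had a higher slope and a higher 8 h level in CNOT1-AID cells. At 24 h CDKN1B, CCNE1 and CCNE2 were higher too, but CDKN1A was not (log2 -0.14, which did not pass). The 8 h rise of CDKN1A (0.31) was 0.22 without untreated replicate 2 and 0.26 without auxin replicate 2. CDKN2C had a higher slope and a lower level, and CDKN1C a higher level with a slope difference that did not pass. CCND1 and CCND3 had slope differences near 0 and lower levels at 24 h. These slopes were ERCC-scaled, whereas the levels were TMM-scaled. Under TMM scaling the slope differences of CCND1 (-0.029, adjusted p = 0.00441) and CCND3 (-0.044, adjusted p = 0.00138) passed edgeR's test on the lower side. The mismatch of these 2 genes therefore depended on the scaling. Across 14102 genes tested in both sets, which are not independent replicates, the Pearson correlation between the slope difference and the auxin response was 0.51 at 8 h and 0.45 at 24 h in CNOT1-AID cells, and -0.02 and 0.01 in CNOT4-AID cells.

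The partners of these genes were a list of 20, mostly kinases, pocket proteins, ubiquitin ligase parts and activators. The list also held the INK4 genes CDKN2A and CDKN2D and the chaperone CDC37. Of the 20, 19 were tested (CDKN2A did not pass the filter), and they moved in both directions. In CNOT1-AID cells 7 rose and 6 fell at 8 h (68.4% of the 19, where 62.8% of all genes passed), with a median log2 change of -0.13, and 7 rose and 10 fell at 24 h (89.5%, where 71.5% of all genes passed), with a median of -0.33. At 8 h CDC25A, the phosphatase that activates CDK2, was 2.76-fold higher (log2 1.46) and FBXW7, the ubiquitin ligase part that recognises cyclin E, 2.39-fold higher (log2 1.25), while CDK4 (-0.48) and SKP1 (-0.36) were lower. At 24 h CDK7, the kinase that activates other CDKs, was 4.21-fold higher (log2 2.07) and AMBRA1, the ligase adaptor that directs D-type cyclins to degradation, 3.38-fold higher (log2 1.76), while CDK6 (-0.96) and CDK4 (-0.78), the kinases of the D-type cyclins, were lower. In CNOT4-AID cells 2 of 19 passed at 24 h, CCNH (0.47) and AMBRA1 (-0.33), where 4.51% of all genes passed. The response of CNOT4-AID minus that of Parental cells at 24 h passed for 0 of 19, where 0.0670% of all genes passed. The slope of CNOT1-AID minus that of Parental cells was higher for 6 of 19, where 18.8% of all genes were higher, with CDK7 (0.305) and CDC25A (0.246) leading.

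Over the 12 steady-state group means, among 8857 protein-coding genes with a mean of at least 5 TPM, the patterns most like CDKN1B were those of FEM1C (r = 0.9985) and RBM48 (0.9977), and those most like CCNE1 were SIMC1 (0.9980) and RRP8 (0.9978). CCNE2 was most like CCNL1 (0.9890) and CEP152 (0.9880). Among the D-type cyclins the likenesses were lower, with TRAF7 (0.9821) and CDCA5 (0.9778) for CCND1 and NEDD8 (0.9707) and ZCRB1 (0.9571) for CCND3.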

How the data were processed

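Per the submitters' processing notes, reads were handled with STAR 2.5.1b, RSEM, SAMtools, featureCounts and DESeq2 on GRCh38 (hg38); which tool made which table is not stated. The authors deposited a steady-state table of TPM and a triptolide table of raw counts. Per the labels' protocols, libraries came from a stranded total RNA kit with ribosomal RNA removal and ERCC spike-in. Gene IDs were matched to GENCODE 29 (58721 of 58721).

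The 10 genes, the partner list and the tests were chosen with earlier results of these data known. Named genes are the 10 and the 2 partners with the largest rise and fall past the threshold. For those of the 10 with a mean of at least 5 TPM, the 2 genes most like each are also named. TPM was fitted with limma 3.58.1 (TMM factors from edgeR 4.0.16, pseudocount 0.5, all 24 libraries, 12 residual degrees of freedom). Counts were fitted with edgeR's quasi-likelihood test with ERCC factors (56 of 92 ERCC RNAs at a mean of at least 10 counts; 18 residual degrees of freedom for slopes), and with TMM for 0 h. DESeq2 1.42.0 was an alternative. Both fits were also run on simulated data, whose counts had slopes constant in time and the same setting of the spread for all genes. The simulation therefore does not cover a decline that changes with time, or libraries that differ as the Parental 0 h ones did. Nascent RNA (TT-seq) libraries of the study were not analysed here. Half-life intervals cover the fitted model's error only.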

Additional observations from a re-analysis of the deposited data

Results flagged for a closer look

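Results stand here because the response to auxin, or the slope under triptolide, differed between lines or times by a test of the difference itself, and values are log2 differences. The auxin response of CNOT1-AID minus that of Parental cells at 8 h was -0.27 for CCND1, -0.64 for CCND3, 0.60 for CCNE1, 0.99 for CCNE2, 0.38 for CDKN1A, 2.58 for CDKN1B, 1.33 for CDKN1C and -1.12 for CDKN2C. At 24 h it was -0.61 for CCND1, -0.78 for CCND3, 1.33 for CCNE1, 0.66 for CCNE2, 2.88 for CDKN1B, 1.29 for CDKN1C and -1.80 for CDKN2C. CDKN1A passed at 8 h and not at 24 h. The 8 h CDKN1A value did not pass without any 1 of 4 libraries. Under ERCC scaling the 8 h values of CCND1 (0.25, adjusted p = 0.116) and CCND3 (-0.13, adjusted p = 0.453) did not pass the limma test. Nor did CCND1 at 24 h (-0.21, adjusted p = 0.179).

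The response of CNOT1-AID minus that of CNOT4-AID cells at 8 h was -0.30 for CCND1, -0.78 for CCND3, 0.54 for CCNE1, 0.89 for CCNE2, 0.40 for CDKN1A, 2.72 for CDKN1B, 1.29 for CDKN1C and -0.91 for CDKN2C. At 24 h it was -0.57 for CCND1, -0.71 for CCND3, 1.31 for CCNE1, 0.31 for CDKN1A, 3.01 for CDKN1B, 1.63 for CDKN1C and -2.06 for CDKN2C. Under ERCC scaling the 8 h values of CCND1 (0.28, adjusted p = 0.0697), CCND3 (-0.21, adjusted p = 0.22) and CDKN2C (-0.46, adjusted p = 0.0723) did not pass the limma test. Within CNOT1-AID cells the 24 h response minus the 8 h response was -0.38 for CCND1, 0.72 for CCNE1, -0.52 for CCNE2, -0.45 for CDKN1A, 0.34 for CDKN1B and -0.77 for CDKN2C.

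The triptolide slope (log2 per hour) of CNOT1-AID minus that of Parental cells was 0.225 for CCNE1, 0.160 for CCNE2, 0.220 for CDKN1A, 0.480 for CDKN1B and 0.214 for CDKN2C. The slope of CNOT1-AID minus that of CNOT4-AID cells was 0.076 for CCND1, 0.321 for CCNE1, 0.209 for CCNE2, 0.304 for CDKN1A, 0.559 for CDKN1B, 0.286 for CDKN2B and 0.244 for CDKN2C. From 0 to 3 h the change in CNOT1-AID minus that in Parental cells was 1.92 for CDKN1A and 3.39 for CDKN1B, and the change in CNOT1-AID minus that in CNOT4-AID cells was 1.45 for CCNE1, 2.49 for CDKN1A and 3.92 for CDKN1B. The CCNE1 value did not pass without any 1 of 6 libraries.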

How the results depend on the processing

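Over 276 values of these genes, 3964 alternatives gave 3760 on the same side of the threshold with no change of sign among those that passed, 144 that no longer passed, 32 that newly passed and 28 that changed sign where the value or its alternative passed; values that passed in neither, such as CDKN1A in CNOT1-AID cells at 24 h (-0.19 to 0.18), could also change sign and are not among the 28; of 446 alternative counts of genes passed, 405 stayed within 1.5 times. These 28 came with another scaling, all but 2 of them at D-type cyclins. CCND1 in CNOT1-AID cells at 8 h was 0.21 with ERCC scaling and 0.04 with none; minus Parental it was 0.25 with ERCC, and minus CNOT4-AID 0.28 with ERCC and 0.15 with none. With no scaling, untreated CNOT4-AID against Parental gave CCND1 -0.12, CCNE1 -0.23 and CDKN1B -0.24. CCND1 at 0 h in CNOT1-AID against Parental was 0.04 with ERCC, and CCND1 from 0 to 3 h in CNOT4-AID was 0.18 with median-of-ratios scaling. Slopes with TMM and with median-of-ratios scaling were, for CCND1, 0.017 and 0.017 in CNOT1-AID, 0.052 and 0.053 in CNOT4-AID, 0.046 and 0.043 in Parental, -0.029 and -0.026 for CNOT1-AID minus Parental, and -0.035 and -0.035 for CNOT1-AID minus CNOT4-AID; for CCND3, 0.063 and 0.064 in CNOT4-AID, 0.050 and 0.048 in Parental and -0.057 and -0.057 for CNOT1-AID minus CNOT4-AID; and for CCND2 in CNOT4-AID, 0.075 and 0.076.

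Counts of genes passed that moved by over 1.5 times follow, with the reported count in parentheses. Untreated CNOT1-AID against Parental (2) gave 1 with median-of-ratios scaling, pseudocount 1 or these lines alone, 0 with ERCC or no scaling, and 0 to 3 without single libraries. Untreated CNOT4-AID against Parental (2) gave 6 with no scaling and 1 to 4 without single libraries. CNOT4-AID at 24 h (1) gave 0 with ERCC or no scaling and 0 to 1 without single libraries. CNOT1-AID minus CNOT4-AID at 8 h (8) gave 5 with ERCC, and CNOT1-AID 24 h minus 8 h (6) gave 3 with its own libraries alone. CNOT1-AID slopes (0) gave 1 with TMM or median-of-ratios scaling. CNOT4-AID minus Parental slopes (0) gave 1 with DESeq2, 1 without the Parental 0 h libraries and 0 to 3 without single libraries. CNOT1-AID minus Parental slopes (5) gave 3 without 12 h, 2 from 0 and 3 h alone and 3 without the Parental 0 h libraries. CNOT1-AID minus CNOT4-AID slopes (7) gave 4 without 12 h and 3 from 0 and 3 h alone. CNOT4-AID slopes (9) gave 4, and Parental slopes (7) gave 2, from 0 and 3 h alone, and Parental slopes 4 without the Parental 0 h libraries. From 0 to 3 h Parental cells (2) gave 4 with TMM or median-of-ratios scaling. At 0 h CNOT1-AID against Parental (5) gave 2 with ERCC and 2 to 5 without single libraries, and CNOT4-AID against Parental (3) gave 0 with ERCC. The causes of these moves were not tested. The fits on 0 and 3 h alone and without the Parental 0 h libraries were chosen after seeing the data.

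Replicate numbers were shared by the groups, but same-numbered libraries showed little common deviation. The r was -0.22 to 0.20 at steady state, with 7 of 66 pairs over 0.1, and -0.33 to 0.13 under triptolide, with 2 of 66. These values cannot show whether same-numbered libraries shared a culture or a batch. With the replicate block the untreated CNOT1-AID count was 1, and 3 calls were lost: CDKN1A in CNOT1-AID minus CNOT4-AID at 24 h (0.31, adjusted p = 0.0506), CDKN1C in untreated CNOT1-AID (-0.31, adjusted p = 0.0594) and CDKN1A at 0 h in CNOT4-AID (0.55, adjusted p = 0.056).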
